A study of Mus musculus with 77 samples.

Results

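The libraries described here are the GFP-only controls at 2 days, in which mouse pancreatic ductal organoids received the reporter and no Neurogenin3 (Ngn3), the transcription factor that starts endocrine differentiation. They were chosen as the columns of the deposited count table whose names mark GFP-only control cells, and they make up 18 of the 77 libraries. The series compared such cells with cells expressing wild-type (WT) Ngn3 or 6S-A Ngn3, a form that lacks phosphorylation sites, and those other groups are not compared here. Ducts came from the pancreas of adult C57BL/6 mice and grew as 3D organoids at passage 2 in a medium with EGF, gastrin, RSPO1, Noggin, FGF10, nicotinamide and N-acetylcysteine. The cells carried a lentiviral Tet-on system made of 2 vectors, the inducer was given for 2 days, and each library was made from 50 GFP-positive cells sorted together as a pool. The labels give 3 biological replicates with 6 technical repeats each, so a library is a pool, and the replicates are also called cultures here. A pool averages over its 50 cells, so a gene's level cannot be split into how many cells used the gene and how much RNA each held.

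Pancreatic ducts carry digestive enzymes from acinar cells to the gut and add bicarbonate-rich fluid. Duct cells are polarised epithelial cells with keratins and tight junctions, and they keep Sox9, a transcription factor that also marks the progenitors of the embryonic pancreas. Grown with EGF and the Wnt agonist RSPO1, they divide for many passages as hollow organoids. Endocrine cells arise from Ngn3-positive progenitors, and insulin, glucagon and somatostatin are the products of the mature beta, alpha and delta cells.

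Levels are given in CPM, the counts of a gene scaled so that all reads on genes of a library sum to the same total, or, where genes are compared with each other, as CPM per kilobase of annotated exon (RPKM). An error after ± is the SD over the 3 replicates with their pools summed (n = 3). Each library held 1822044 to 5632412 reads on genes and 16442 to 18461 genes with a read. The libraries of 2 pairs, repeats 2 and 3 of replicate 2 and repeats 2 and 3 of replicate 3, differed far less than other pools of a culture (chi-square per gene 2.172 and 1.609, against 5.408 to 35.73 in the other 43 pairs). They were each summed and counted as 1 sample, which left 16 pools.

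Repeats 1 to 4 of replicate 3 stood apart from the other pools. Mitochondrial genes took 13.99 to 15.67% of their reads, against 5.942 to 6.067% in repeats 5 and 6 of the same replicate and 6.63 to 9.81% in replicates 1 and 2. Repeats 1 to 4 were also above repeats 5 and 6, by less, in replicate 1 (7.09 to 7.96% against 6.63 to 6.76%). The same held in replicate 2 (8.69 to 9.81% against 7.47 to 7.58%). In repeats 1 to 4 of replicate 3, spike-in RNA was 0.203 to 0.236% of gene and spike-in reads, and in its repeats 5 and 6 it was 0.0736 to 0.0753%. Most of the mitochondrial difference lay in the 2 ribosomal RNAs. The larger of them, mt-Rnr2, was at 87485 to 98155 CPM in these pools and at 27558 to 53337 CPM in all others. The smaller, mt-Rnr1, was at 15027 to 19947 CPM against 2746 to 7763 CPM. The summed 13 mitochondrially encoded respiratory chain genes were at 32843 to 37990 CPM and 27608 to 37062 CPM. Across the 9847 genes at 10 CPM or more, 165 were at least 2-fold higher and 523 at least 2-fold lower in repeats 1 to 4 than in repeats 5 and 6, whereas replicate 1 was at least 2-fold higher than replicate 2 for 24 genes and lower for 63. The labels give these repeats no separate condition, so results that rest on them are given with and without them, and the cause of the split was not tested.

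**Figure D1:**
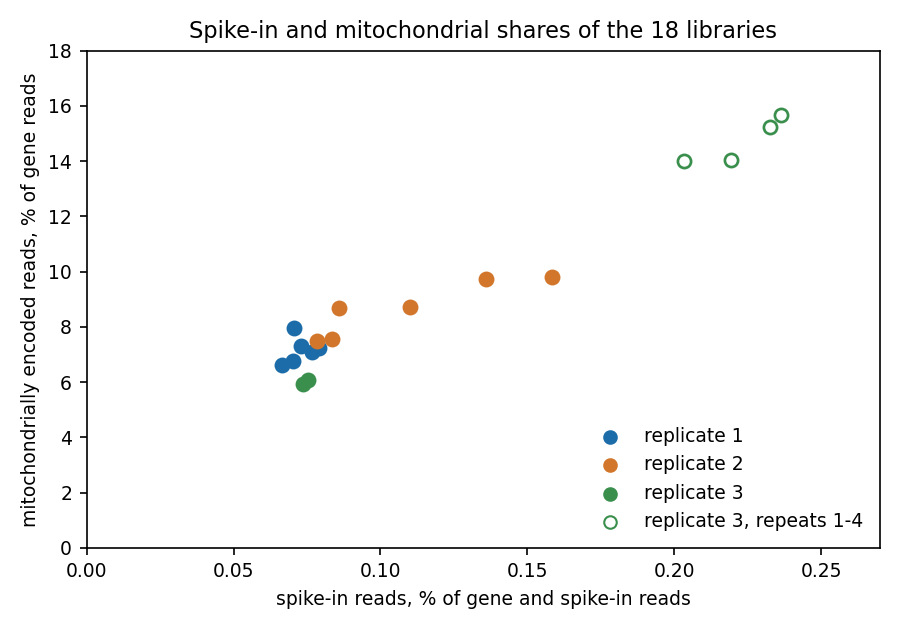
Mitochondrially encoded share of gene reads (vertical axis, percent) against the share of spike-in reads (horizontal axis, percent), with a point for each of the 18 libraries, coloured by replicate. Repeats 1 to 4 of replicate 3 (open circles) sit at 13.99 to 15.67% mitochondrial and 0.203 to 0.236% spike-in reads, above every other library on both axes.

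The 3 genes that define the ductal label, Krt19, Sox9 and Spp1, had reads in all 16 pools. Krt19, the keratin used most often to mark duct cells (ENSMUSG00000020911, chr11:100140810-100148665 on GRCm38), had pools at a lowest, median and highest level of 581, 652 and 778 CPM in replicate 1 and of 459, 609 and 757 CPM in replicate 2. In replicate 3, it stood at 522 to 577 CPM in repeats 1 to 4 and at 914 and 782 CPM in repeats 5 and 6. The 3 cultures overlapped throughout, and the 2 highest pools were both from replicate 3. The edgeR quasi-likelihood test over the replicates gave an adjusted p of 0.696 for Krt19 (0.188 without repeats 1 to 4 of replicate 3).

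Sox9, the transcription factor that maintains ductal and progenitor identity (ENSMUSG00000000567, chr11:112782224-112787760), was at 331, 426 and 510 CPM (lowest, median and highest pool) in replicate 1. The same 3 values were 274, 310 and 401 CPM in replicate 2 and 370, 393 and 442 CPM in replicate 3. Replicate 2 lay lowest and its range still overlapped those of both other cultures. The highest fitted level was 1.3-fold above the lowest, with an adjusted p of 0.0547 in the edgeR test and 0.0917 without repeats 1 to 4 of replicate 3, so the difference did not pass. Spp1, which encodes the secreted phosphoprotein osteopontin (ENSMUSG00000029304, chr5:104435118-104441050), was at 6841, 9333 and 10951 CPM in replicate 1, 8205, 9703 and 12277 CPM in replicate 2 and 5657, 8856 and 9385 CPM in replicate 3. All 3 ranges overlapped, and the edgeR test gave an adjusted p of 0.235.

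**Figure D2:**
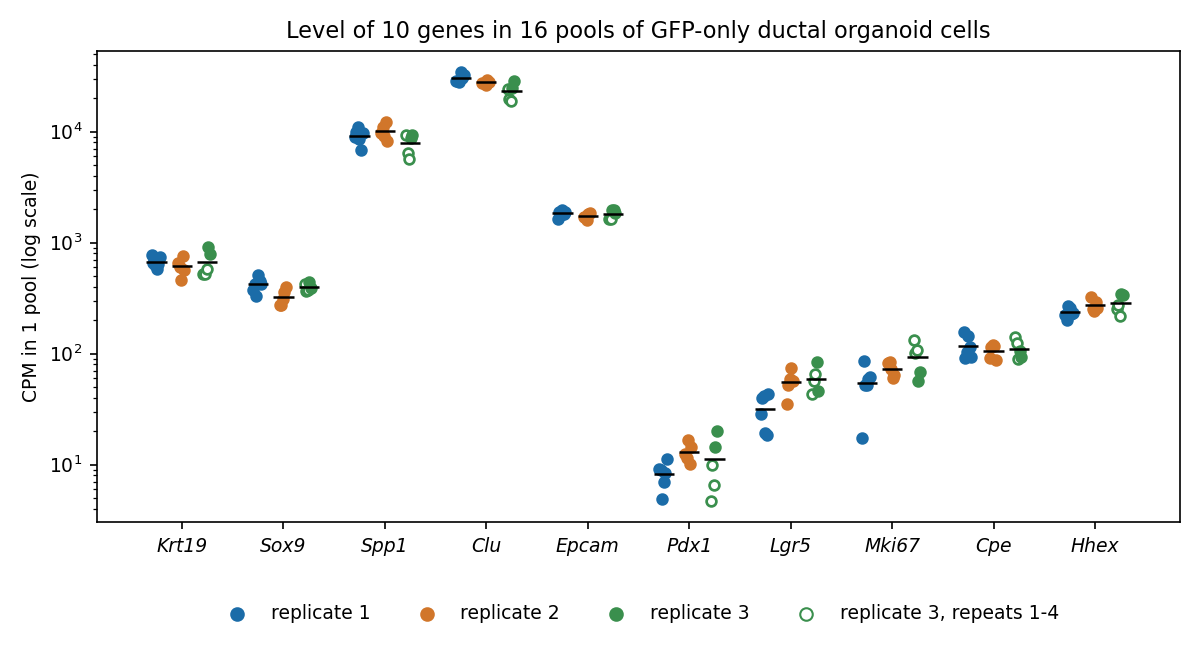
Level of 10 ductal, progenitor, cycling and endocrine-associated genes in the 16 pools (CPM, log axis), with a point for each pool, coloured by replicate, and a bar at the mean of the pools of each replicate. The replicates overlap for Krt19 (459 to 914 CPM), Sox9 (274 to 510 CPM) and Spp1 (5657 to 12277 CPM), and Mki67 has 1 pool of replicate 1 at 17.3 CPM, below all others.

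The nuclear protein-coding genes with the most reads were led by secreted and cytoskeletal products. The 20 highest genes took 17.8% of the reads. Of all reads, 8.12% fell on the 6 mitochondrially encoded genes among them, 2.25% on 2 nuclear noncoding RNAs and 7.39% on 12 nuclear protein-coding genes. The 100 highest took 26.9% and the 1000 highest 52.9%, and 64 genes reached 1000 CPM. The highest nuclear gene was Clu (27457 ± 3418 CPM), which encodes clusterin, a secreted chaperone. Clu was followed by Spp1 (9120 ± 1021 CPM), Lcn2 (6812 ± 1252 CPM), an iron-scavenging defence protein of injured epithelia, and Actb (5525 ± 74.4 CPM). Further down came Cxcl5, a chemokine for neutrophils (4530 ± 289 CPM), Igfbp7, a secreted binding protein for growth factors (3257 ± 721 CPM), Ly6e, a surface protein held by a lipid anchor (3187 ± 357 CPM), and Cp, the copper carrier ceruloplasmin (2530 ± 184 CPM). The keratin Krt18 (3173 ± 39.3 CPM), the hyaluronan receptor Cd44 (2656 ± 279 CPM), the immediate early gene Fos (2981 ± 154 CPM) and the chaperone Hsp90ab1 (2628 ± 59.0 CPM) were also among the 20.

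The mitochondrially encoded genes among those 20 were mt-Rnr2 (46947 ± 11594 CPM), mt-Cytb (9398 ± 460 CPM), mt-Nd1 (8240 ± 920 CPM), mt-Co1 (6617 ± 404 CPM), mt-Rnr1 (6587 ± 3654 CPM) and mt-Nd5 (3402 ± 26.0 CPM). The ribosomal RNA gene CT010467.1 (18897 ± 4367 CPM) and the nuclear noncoding RNA Malat1 (3612 ± 890 CPM) completed them. Malat1 was at 5991 to 6702 CPM in repeats 1 to 4 of replicate 3 and at 2082 to 4057 CPM elsewhere, without overlap. Lcn2 was lower there than in any other pool, with 4470 to 4594 CPM against 5591 to 9481 CPM. Per kilobase, the order of the nuclear protein-coding genes was Clu (7989 RPKM), Spp1 (5534), Igfbp7 (2694), Lcn2 (2597), Cxcl5 (2431), Krt18 (2208) and Actb (2062). The mitochondrially encoded genes were far from equal per kilobase, with 8611 RPKM for mt-Nd1, 8215 RPKM for mt-Cytb and 4283 RPKM for mt-Co1 beside 54.7 RPKM for mt-Atp6, 27.4 RPKM for mt-Co3 and 23.2 RPKM for mt-Co2. The part that reads aligning to several places play in these levels was not tested, since the table lists none.

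All 22 genes listed for ductal identity had reads in every pool, and 20 of them were at 100 CPM or more. Clu and Spp1 were followed by Krt18 (2208 RPKM), the claudin Cldn4 (1045 RPKM), Epcam, an epithelial adhesion protein (820 RPKM), and the metalloproteinase Mmp7 (802 RPKM). The other keratins were Krt8 at 765 RPKM, the partner of Krt18, Krt19 at 356 RPKM and Krt7 at 194 RPKM. Tight junction and surface proteins came in the same range, with Cldn3 at 452, Cd24a at 340, the mucin Muc1 at 286, Cldn7 at 257 and E-cadherin (Cdh1) at 164 RPKM. Sox9 was at 92.7 RPKM and Pkhd1, a gene of the primary cilium, at 5.11 RPKM, the lowest of the list. The summed list was at 53745 ± 4216 CPM, with 39689 to 48735 CPM in repeats 1 to 4 of replicate 3 and 51976 to 60639 CPM in the other pools, which did not overlap.

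**Figure D3:**
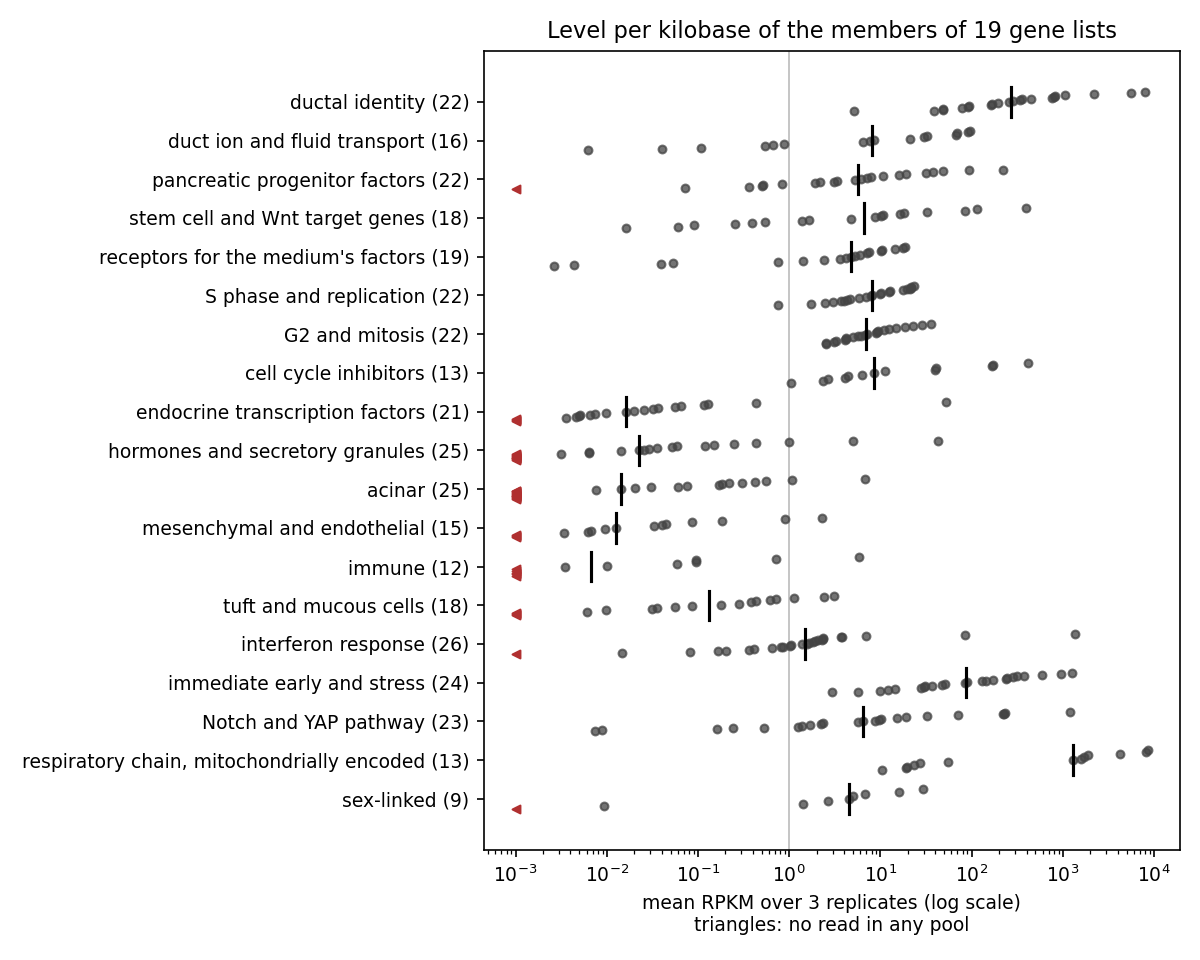
Mean level per kilobase (RPKM over 3 replicates, log axis) of the members of the 19 gene lists, with a point for each gene, a row for each list, a bar at the median of the list, a grey line at 1 RPKM and triangles at the left edge for genes without a read in any pool. The ductal identity genes lie between 5.11 and 7989 RPKM, while most endocrine genes lie under 1 RPKM.

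The transport machinery of the duct was present in part. The sodium pump subunit Atp1b1 (68.5 RPKM), the carbonic anhydrase Car2 (92.0 RPKM) and the calcium-activated chloride channel Ano1 (68.0 RPKM) were among the highest of the 16 listed genes. The bicarbonate cotransporter Slc4a4 was at 21.1 RPKM and the chloride cotransporter Slc12a2 at 32.6 RPKM. Cftr, the chloride channel behind duct secretion in the intact pancreas, was low in each culture, with pools of 1.82, 2.62 and 7.68 CPM (lowest, median, highest) in replicate 1, 4.81, 6.20 and 14.5 CPM in replicate 2 and 0.945, 3.73 and 10.4 CPM in replicate 3. At 0.658 RPKM it was detected in all 16 pools far below the level of Ano1. The water channel Aqp5 ranged from 0.546 to 100 CPM among pools, Aqp1 was at 1.43 ± 0.411 CPM with reads in 11 pools, and the secretin receptor Sctr had 5 reads, all in 1 pool.

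Among 22 transcription factors of pancreatic progenitors, 17 had reads in every pool. The Notch target Hes1 was highest (223 RPKM), ahead of Sox9, Foxa2 (37.8 RPKM) and Onecut2 (31.7 RPKM). Pdx1, which marks the whole early pancreatic bud and later beta cells, was present in every pool at a low level of 11.4 ± 2.35 CPM (4.73 to 20.2 CPM). Nkx6-1, a later progenitor and beta cell factor, was at 1.64 ± 0.470 CPM with reads in 14 pools, and the acinar regulators Nr5a2 and Gata4 were at 2.13 ± 1.43 and 1.96 ± 1.33 CPM. Ptf1a, which is needed for acinar fate, had no read in any pool.

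Genes of the Wnt pathway and of cultured epithelial stem cells were measured beside the receptors for the factors in the medium. Cd44 (392 RPKM), the cell cycle driver Ccnd1 (115 RPKM), Myc (84.0 RPKM) and Sox4 (32.5 RPKM) led the 18 genes. Lgr5, the RSPO1 receptor that marks dividing duct and gut stem cells, was in every pool at 48.4 ± 15.2 CPM, with pools of 18.4, 34.5 and 42.9 CPM (lowest, median, highest) in replicate 1, 34.8, 56.5 and 73.6 CPM in replicate 2 and 43.2, 56.1 and 83.6 CPM in replicate 3. Replicate 1 lay lower than most pools of the others, and its highest pool stayed under the lowest of replicate 3. Lgr4, a second RSPO1 receptor, was at 59.6 ± 17.0 CPM. The feedback genes Axin2, Rnf43 and Znrf3, which dampen Wnt signalling, were at 47.7 ± 23.7, 70.1 ± 18 and 145 ± 31.0 CPM. Of the other listed genes, Olfm4, a marker of intestinal stem cells, was at 1.60 ± 1.80 CPM, and Smoc2 had 9 reads.

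For EGF, the cells carried Egfr (18.6 RPKM), Erbb2 (14.4 RPKM) and Erbb3 (10.3 RPKM), and Erbb4 had 2 reads in all. Bmpr1a, a receptor for the ligands that Noggin blocks, was at 17.9 RPKM, and Fgfr2, whose epithelial form binds FGF10, was at 7.11 RPKM. The gastrin receptor Cckbr had 1 read in the 16 pools and the related Cckar 11 reads. Gastrin was in the medium of all these cultures.

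Genes that respond fast to growth factors or to handling were high. Per kilobase, Fos (1267 RPKM), Ier3 (959 RPKM), Atf3 (589 RPKM) and Dusp1 (371 RPKM) led the 24 immediate early and stress genes, all of which had reads in every pool, and the list summed to 12921 ± 1214 CPM. Targets of YAP, the coactivator that reads tissue stiffness and stretch, were also high, with Ccn1 at 1203, Ccn2 at 235 and Ankrd1 at 229 RPKM. Yap1 itself was at 8.62 RPKM, and Notch2 (9.68 RPKM) was the highest Notch receptor, ahead of Notch1 (2.23 RPKM) and Notch3 (1.39 RPKM). Of 26 interferon response genes, B2m, the light chain of MHC class I (1363 RPKM), and Bst2, which tethers virus particles to the cell (84.7 RPKM), stood far above Irf9 (7.0 RPKM) and Stat2 (3.79 RPKM).

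Markers of other pancreatic cell types were scarce. In the acinar list, 15 of 25 genes had at most 3 reads in each replicate, and 11 of those had none, among them the trypsinogen Prss1, the lipase Pnlip and the carboxypeptidase Cpa1. The summed acinar list was at 2.07 to 50.2 CPM per pool, with Reg1 (0 to 38.3 CPM), Cela1 (0 to 6.46 CPM), Bhlha15 (0 to 6.92 CPM) and Amy1 (0 to 7.32 CPM) as its highest members per kilobase. Mesenchymal and endothelial genes summed to 3.82 to 56.7 CPM, with 7 of 15 at or under 3 reads, and Vim, an intermediate filament that epithelial cells in culture also make, was the highest at 10.8 ± 3.38 CPM. The collagen Col3a1, the stromal Lum and Thy1 had no read. In the immune list, 7 of 12 genes were at or under 3 reads, and the leading members were Cd68 (7.31 ± 0.890 CPM) and Csf1r (4.19 ± 0.808 CPM), while Lyz2 and Cd3e had none. Dclk1, a marker of tuft cells, was at 46.9 ± 11.6 CPM in all pools, whereas the tuft cell channel Trpm5 was at 0.548 ± 0.215 CPM and the tuft cell regulator Pou2f3 had 8 reads. Xist was not detected, and the Y-linked Eif2s3y (121 ± 8.11 CPM) and Ddx3y (82.9 ± 9.80 CPM) were in all 16 pools.

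The endocrine programme was close to silent. Of 46 endocrine transcription factors, hormones and granule genes, 28 had at most 3 reads in each replicate, which is 0.113, 0.119 and 0.145 CPM in replicates 1, 2 and 3. No read at all was found for 11 of them, among which were the hormone genes Ins1, Ins2, Gcg, Ppy and Pyy, the transcription factors Mafa and Pou3f4, and G6pc2, Kcnj11 and Resp18 of the beta cell and its granules. A count of 0 allows up to 3 reads per replicate, so those same CPM values are the upper limits for each of the 11, for counting error only. Neurog3 (Ngn3) had 4 reads in the whole group, 1 in each of 4 pools, and its direct target Neurod1 had 1 read. Pax4 had 4 reads, Rfx6 3 and Fev 2.

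Hhex, a factor of delta cells that ducts also express, was the exception among the 21 transcription factors. Its pools were at 203, 232 and 270 CPM (lowest, median, highest) in replicate 1, 245, 257 and 321 CPM in replicate 2 and 219, 272 and 341 CPM in replicate 3. The ranges overlapped, and the level per kilobase was 52.9 RPKM. There were 7 others above 3 reads in a replicate, and of these Nkx2-2, Insm2, Pax6, Lmx1b, Insm1 and Isl1 were at mean levels of 0.368, 0.309, 0.302, 0.272, 0.202 and 0.0788 CPM. None of these 7 had reads in all pools.

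Among the granule genes, Cpe and Ptprn had reads in every pool. Cpe, a carboxypeptidase that trims prohormones and is made outside endocrine cells too, was at 111 ± 4.95 CPM (87.1 to 157 CPM), and Ptprn, a membrane protein of dense-core granules, was at 21.1 ± 6.69 CPM (9.22 to 53.9 CPM). The other 8 granule and hormone genes above 3 reads in a replicate reached a mean of 1.56 CPM at most, for Scg5. Chga and Chgb, the chromogranins, were at 0.417 ± 0.294 and 0.330 ± 0.214 CPM. Ghrelin (Ghrl) had 35 reads spread over 11 pools, and somatostatin (Sst) 13 reads over 7 pools.

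The organoids were cycling, and the phases of the cycle varied from pool to pool in different ways. All 22 genes listed for S phase and all 22 for G2 and mitosis were above the limit of detection in each replicate. Of the S phase genes, which copy DNA or license it for copying, the helicase subunits Mcm3 (23.4 RPKM), Mcm6 (21.9 RPKM) and Mcm4 (21.1 RPKM) and the sliding clamp Pcna (21.7 RPKM) were highest. Of the mitotic genes, the cyclin Ccnb2 (36.1 RPKM), the ubiquitin-conjugating enzyme Ube2c (28.8 RPKM), the ubiquitin ligase activator Cdc20 (22.5 RPKM) and the mitotic kinase Cdk1 (18.4 RPKM) were highest. Mki67, the common marker of dividing cells, was at 72.2 ± 15.5 CPM. Of 13 inhibitors of the cycle, Btg2 at 418, Cdkn1a (p21) at 171, Cdkn2b (p15) at 168 and Gadd45a at 41.2 RPKM were highest, while Cdkn1b (p27) was at 8.50 RPKM and Cdkn1c (p57) at 1.04 RPKM. The median over the inhibitors was 8.50 RPKM, near the 8.06 RPKM of the S phase list and the 6.95 RPKM of the G2 list.

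The G2 and mitosis genes are known to share promoter elements, and the stretch before the start site of 4 high members is shown to let the elements be seen. In quiescent cells and G1, the DREAM complex holds such genes down through an element called the cell cycle homology region (TTTGAA), while NF-Y binds CCAAT boxes near it. E2F factors drive S phase genes through sites such as TTTCGCGC and TTTGGCGC. Each sequence is the 150 bases before the RefSeq start on GRCm38.p6, written 5′ to 3′ on the strand of the gene. Capitals mark these elements on either strand. Mcm6 is shown from the S phase list and is among the 3 of its 20 promoters with either E2F form. Mcm3, the highest of that list, held CCAAT boxes and no E2F letters in this window.
Cdk1, chr10:69352913-69353062, minus strand: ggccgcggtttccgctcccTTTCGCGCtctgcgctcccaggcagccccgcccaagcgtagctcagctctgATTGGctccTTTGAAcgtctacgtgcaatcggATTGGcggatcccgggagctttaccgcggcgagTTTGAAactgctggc
Top2a, chr11:99024190-99024339, minus strand: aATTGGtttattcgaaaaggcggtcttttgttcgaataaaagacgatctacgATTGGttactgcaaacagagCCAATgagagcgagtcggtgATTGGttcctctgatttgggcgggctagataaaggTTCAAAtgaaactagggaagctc
Cdc20, chr4:118437344-118437493, minus strand: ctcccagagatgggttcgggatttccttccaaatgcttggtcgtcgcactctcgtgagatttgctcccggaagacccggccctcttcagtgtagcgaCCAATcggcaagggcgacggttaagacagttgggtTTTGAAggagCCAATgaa
Ccnb2, chr9:70421555-70421704, minus strand: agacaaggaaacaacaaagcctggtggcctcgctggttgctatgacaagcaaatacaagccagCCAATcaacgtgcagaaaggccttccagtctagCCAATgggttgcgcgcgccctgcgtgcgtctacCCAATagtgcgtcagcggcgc
Mcm6, chr1:128359706-128359855, minus strand: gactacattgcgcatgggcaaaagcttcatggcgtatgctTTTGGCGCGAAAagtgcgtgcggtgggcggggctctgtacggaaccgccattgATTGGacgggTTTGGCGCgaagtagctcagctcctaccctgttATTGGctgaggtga

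In Cdk1, 2 CCAAT boxes (ATTGG on the strand shown, beginning 80 and 48 bases before the start) alternated with TTTGAA at 71 and 15 bases before the start, and TTTCGCGC lay at 131. Top2a held 4 CCAAT boxes and a TTCAAA, the reverse complement of TTTGAA, at 23 bases before the start. The capitals of Cdc20 lay within 53 bases of its start, and Ccnb2 held 3 CCAAT boxes and no TTTGAA in this window. The Mcm6 stretch held E2F letters, with TTTGGCGC and the reverse complement of TTTCGCGC overlapping. Over the 250 bases before the start, TTTGAA was found in 7 of 17 promoters of the G2 list, 2 of 20 of the S phase list and 16% of all 32851 promoters. A CCAAT box was found in 15 of 17, 13 of 20 and 33.8%, and both elements together in 7 of 17, 1 of 20 and 5.55%. Either of the 2 E2F forms was in 1 of 17, 3 of 20 and 0.654%. RefSeq promoters were matched for 17 of the 22 G2 genes and 18 of the 22 S phase genes, some with more than 1 start. A match describes letters and not binding.

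The summed G2 and mitosis list varied between pools of a culture, most widely in replicate 1. Its pools in replicate 1 were at 322, 1232, 895, 1159, 789 and 657 CPM for repeats 1 to 6, a 3.83-fold range. In replicate 2, they were at 802 to 1043 CPM, and in replicate 3 at 680 to 878 CPM in repeats 1 to 4 and at 1179 and 847 CPM in repeats 5 and 6. Repeat 1 of replicate 1 was the lowest of its culture for 18 of the 22 genes, while repeats 2 and 4 were the highest for 11 and 10. In that pool, Cdk1 was at 36.8 CPM against 78.2 to 128 CPM in the other 5 pools of the culture, Mki67 at 17.3 CPM against 51.6 to 85.3 CPM, and Plk1, a kinase of mitotic entry, at 6.25 CPM against 13.5 to 45.2 CPM. The pool held 4160413 reads on genes, of which 1339 were on the list.

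The pool CV of the G2 sum within replicates was 26.7% (28.1% without repeats 1 to 4 of replicate 3), where counting alone gives 1.56%. The S phase sum had a pool CV of 17.9%, the ductal sum of 8.86% (4.90% without those repeats) and the immediate early sum of 6.02%. The G2 genes also moved together: the median correlation between pairs of its genes, taken across the 16 pools as deviations from the replicate mean, was 0.669. The same value was 0.441 for the S phase genes, 0.261 for the ductal genes, 0.0582 for the immediate early genes and 0.0246 for the 8696 genes between 10 and 150 CPM. The pools share a culture and their depth, and these correlations are a description without a test.

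When the 9847 genes at 10 CPM or more were ranked by how their deviations followed the G2 sum, 16 of the 22 members came among the first 60, which the sum in part ensures because it contains them. The leading genes outside the list, chosen after their values were seen, were Kif22 (r = 0.919), Cklf (0.919), Cks2 (0.899), Stard4 (0.898), Kif23 (0.882), Sgo1 (0.879) and Ccnf (0.874). Kif22 and Kif23 encode mitotic kinesins, Cks2 a partner of Cdk1, Sgo1 a protector of chromosome cohesion and Ccnf a cyclin. The S phase genes followed the G2 sum little, with a median r of 0.131 against 0.0457 over all genes ranked.

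**Figure D4:**
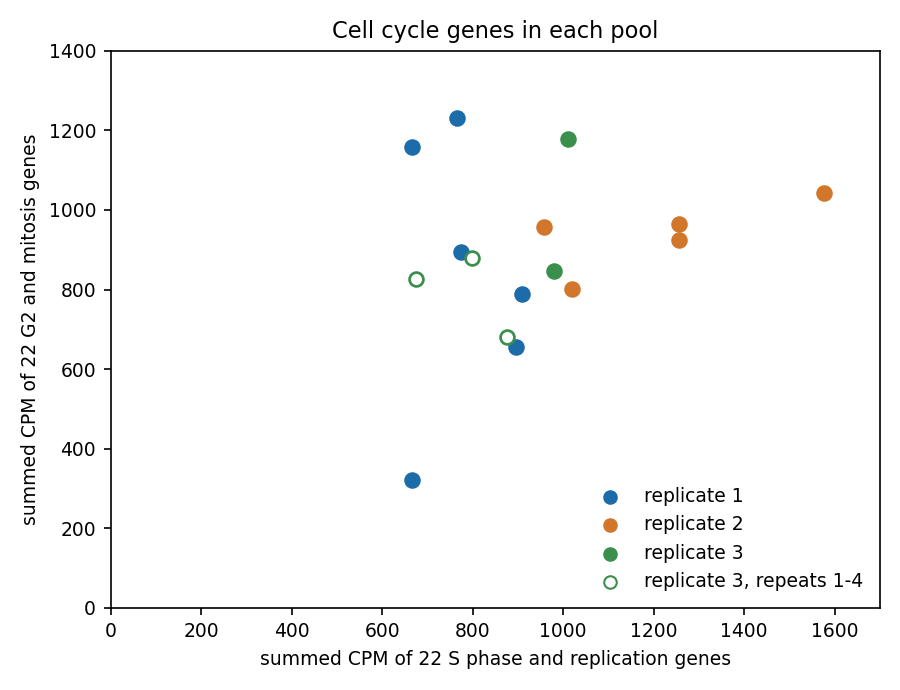
Summed CPM of the 22 G2 and mitosis genes (vertical axis) against that of the 22 S phase genes (horizontal axis), with a point for each of the 16 pools, coloured by replicate, and repeats 1 to 4 of replicate 3 as open circles. Replicate 1 spreads along the G2 axis from 322 to 1232 CPM, and replicate 2 lies at 958 to 1578 CPM on the S phase axis, above all pools of replicate 1.

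To ask whether the 3 cultures differed beyond the spread of their pools, replicate was tested as the factor in edgeR, with the pool as the unit, so the p-values speak of these cultures only. Of 19460 genes tested, 1610 (8.27%) passed at an adjusted p under 0.05, and 387 (1.99%) also differed at least 2-fold between the highest and lowest fitted level. Of the 387, 246 were highest in replicate 3, 78 in replicate 1 and 63 in replicate 2. Without repeats 1 to 4 of replicate 3, 400 genes (2.06%) passed, 89 of them (0.457%) at 2-fold or more, and 332 genes passed both times. Of those 89, 42 were highest in replicate 2, 25 in replicate 1 and 22 in replicate 3, so the larger part that was highest in replicate 3 with all pools was not seen in this setting. Of the 9847 genes at 10 CPM or more, where most listed genes lie, 1449 (14.7%) passed, and 374 (3.8%) without those repeats. The second setting rests on 13 pools in place of 16, so a call lost there need not go with a smaller fold.

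S phase genes differed between cultures, and most of those that did were highest in replicate 2. Of the 22 genes, 10 passed the edgeR test, 9 of them highest in replicate 2, and 5 passed without repeats 1 to 4 of replicate 3, all highest in replicate 2, beside 14.7% and 3.8% of genes at 10 CPM or more. The summed list was at 958 to 1578 CPM per pool in replicate 2, at 665 to 910 CPM in replicate 1 and at 674 to 1010 CPM in replicate 3, so replicates 1 and 2 did not overlap. Within replicate 2, repeat 1 was at 1578 CPM and the other pools at 958 to 1256 CPM. That pool was the highest of its culture for 16 of the 22 genes, and how far the calls rest on it was not tested. Mcm6 had pools at 70.3, 79.3 and 86.9 CPM (lowest, median, highest) in replicate 1 and at 105, 131 and 152 CPM in replicate 2, and in replicate 3 it was at 64.8 to 74.3 CPM in repeats 1 to 4 and at 123 and 124 CPM in repeats 5 and 6. It differed 1.65-fold in both settings (adjusted p = 0.00490, and 0.000487 without those repeats). Cdt1, which loads the helicase onto origins, was at 15, 17.7 and 29 CPM in replicate 1, 29.3, 42.0 and 53.8 CPM in replicate 2 and 21.4, 30.4 and 41.4 CPM in replicate 3, a 2.16-fold difference (adjusted p = 0.00394, and 2.15-fold without those repeats, 0.00579). Replicates 1 and 2 did not overlap for either gene.

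Cdc6, the partner of Cdt1, was at 0.721 to 8.74 CPM in replicate 1, 12.4 to 50.4 CPM in replicate 2 and 7.10 to 18 CPM in replicate 3 (4.11-fold, edgeR adjusted p = 0.00577), and without repeats 1 to 4 of replicate 3 it was 4.07-fold and no longer passed (0.0538). In replicate 2, repeat 1 held 224 reads on Cdc6 and each other pool 66 to 90. The cyclin Ccne2, which drives entry into S phase, was at 2.63 to 4.91 CPM in replicate 1, 7.83 to 19.6 CPM in replicate 2 and 9.45 to 28.2 CPM in replicate 3, a 4.06-fold difference (adjusted p = 0.000643, and 3.54-fold without those repeats, 0.00166). Replicate 1 was below every pool of both others for Ccne2, whose highest fitted level was in replicate 3 with all pools and in replicate 2 without those repeats. The median range between fitted replicate levels was 0.72 on the log2 scale for the S phase genes, 0.57 over all genes tested and 0.37 over those at 10 CPM or more.

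For G2 and mitosis, no gene of the 22 passed in edgeR, with or without repeats 1 to 4 of replicate 3. With all pools, 2 genes had an unadjusted p under 0.05, and the likelihood ratio test of DESeq2 called 1. The median range between cultures was 0.39 on the log2 scale, beside 0.37 over genes at 10 CPM or more. A p that misses the threshold does not show that the cultures were alike, and the median biological coefficient of variation of these genes was 32.5%.

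Most ductal genes did not pass the test between cultures, and Mmp7 was the single one to pass with a difference of at least 2-fold. In edgeR, 5 of 22 passed (Cdh1, Muc1, Clu, Mmp7 and Car2), and 4 passed without repeats 1 to 4 of replicate 3 (among them Cdh1, Muc1 and Krt8), beside 14.7% and 3.8% of genes at 10 CPM or more. The median range between cultures was 0.32 on the log2 scale (0.25 without), close to the 0.37 (0.29) over genes at that level. Cdh1, the cadherin that joins epithelial cells, was at 860 to 971 CPM in replicate 1, 453 to 605 CPM in replicate 2 and 693 to 982 CPM in replicate 3, so replicate 2 lay below every pool of the others (1.63-fold in both settings, adjusted p = 0.000545, and 2.04e-05 without). Mmp7 went the other way, with 958 to 1725 CPM in replicate 2, 393 to 833 CPM in replicate 1 and 366 to 1021 CPM in replicate 3, a 2.16-fold difference (edgeR adjusted p = 0.0126) that was of the same size without repeats 1 to 4 of replicate 3 (2.16-fold) and did not pass there (0.0882). In the transport list, 4 of 14 tested genes passed and 1 without those repeats, beside the same 14.7% and 3.8%. Ano1 was the single one that passed in both settings, highest in replicate 1 at 461 to 553 CPM against 329 to 443 and 317 to 416 CPM (1.42-fold, edgeR adjusted p = 0.00163, and 1.36-fold without, 0.00324). Of the others, Car2 went from 1.61-fold to 1.63-fold without those repeats, Slc12a2 from 1.86-fold to 1.28-fold and Slc4a4 from 1.31-fold to 1.06-fold.

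Among the progenitor factors, 6 of 21 tested genes passed, each highest in replicate 3 and lowest in replicate 1, beside 14.7% of genes at 10 CPM or more, and without repeats 1 to 4 of replicate 3 the single call was Onecut2. Of the 5 calls lost there, the folds of Hes1 (1.55 with all pools, 1.52 without those repeats), Tcf7l2 (1.56 and 1.52), Foxa2 (1.54 and 1.46) and Prox1 (1.72 and 1.64) stayed close, while that of Gata6 went from 1.61 to 1.12. Onecut2, a factor of early duct and endocrine development, was at 225, 291 and 329 CPM (lowest, median, highest pool) in replicate 1 and 467, 506 and 541 CPM in replicate 2. In replicate 3, it stood at 721 to 1093 CPM in repeats 1 to 4 and at 492 and 598 CPM in repeats 5 and 6. Replicate 1 did not overlap with the others, and the fold was 2.97 (edgeR adjusted p = 9.92e-05), or 1.90 without those repeats (7.77e-06).

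Of 17 tested stem cell and Wnt target genes, 9 passed, 7 of them highest in replicate 3, and 3 passed without repeats 1 to 4 of replicate 3, namely Rnf43, Myc and Ccnd1, beside 14.7% and 3.8% of genes at 10 CPM or more. Axin2 was at 100 to 107 CPM in those repeats, at 43.5 and 49.2 CPM in repeats 5 and 6, and at 18.8 to 39.5 and 30.6 to 48.9 CPM in replicates 1 and 2. Its difference was 3.11-fold (edgeR adjusted p = 0.000333), and 1.68-fold without them, where it did not pass (0.0658). Lgr5 differed 1.92-fold (edgeR adjusted p = 0.0137), and without them it differed 2.00-fold and did not pass (0.0879). In the receptor list, 5 of 15 tested genes passed and 1, Egfr, without those repeats, and among the inhibitors of the cycle 3 of 13 passed and 1, Btg2, without them, beside the same 14.7% and 3.8%. The order of the cultures for Egfr changed between the settings: it was highest in replicate 3 with all pools (1.54-fold, edgeR adjusted p = 0.0184) and highest in replicate 1 without those repeats (1.36-fold, 0.0312), and lowest in replicate 2 in both.

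The immediate early genes that differed were highest in replicate 3 in both settings. Of the 24, 9 passed in edgeR and 6 without repeats 1 to 4 of replicate 3, all highest in replicate 3, beside 14.7% and 3.8% of genes at 10 CPM or more. Fosb was at 362, 444 and 503 CPM (lowest, median, highest) in replicate 1, 395, 481 and 516 CPM in replicate 2 and 734, 801 and 841 CPM in replicate 3. Repeats 5 and 6 of replicate 3, at 739 and 734 CPM, also stood above every pool of the other cultures. The difference was 1.88-fold (adjusted p = 6.91e-06), and 1.66-fold without repeats 1 to 4 (0.000927). Klf6 (1.67-fold, adjusted p = 9.95e-06, and 1.52-fold without, 0.000737) and Atf3 (1.60-fold, 9.92e-05, and 1.46-fold without, 0.00324) had the same arrangement, with all pools of replicate 3 above those of replicates 1 and 2. In the Notch and YAP list, 4 of 21 tested genes passed and 1 without those repeats, beside the same 14.7% and 3.8%. Ccn1 alone passed in both settings, lowest in replicate 1 at 1523 to 2103 CPM. Of the other 3, Hes1 is also in the progenitor list, and Notch2 and Tead1 went from 1.51-fold and 1.69-fold to 1.09-fold each.

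Of the endocrine genes, 7 transcription factors and 10 hormone and granule genes could be tested. None of the 7 passed in edgeR with all pools or in DESeq2, with 3 at an unadjusted p under 0.05, and Hhex, at 1.24-fold with all pools, passed without repeats 1 to 4 of replicate 3 (1.41-fold, adjusted p = 0.0427). Ptprn passed with all pools (2.01-fold, adjusted p = 0.0400), where repeats 1 to 4 were at 31.1 to 53.9 CPM and all other pools at 9.22 to 25.4 CPM, and not without them (1.13-fold, 0.924). No tested gene of the acinar (7), mesenchymal and endothelial (6) or immune (4) lists passed in edgeR, and DESeq2 called none either. At an unadjusted p under 0.05, these lists held 0, 0 and 1 genes. Of 23 interferon response genes, 2 passed, Bst2 and Ifi44, beside 8.27% of all genes, and of 11 tuft and mucous genes 1, Muc2, at 2.01 CPM. Kdm5d was the 1 of 7 tested sex-linked genes to pass, and of these 4 only Bst2 passed again without those repeats. None of 13 mitochondrially encoded respiratory chain genes passed with all pools (4 at an unadjusted p under 0.05, 3 in DESeq2), and 2, mt-Nd2 and mt-Co1, did without those repeats.

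Of the 15 genes with the smallest p among those 2-fold apart and at 10 CPM or more, 14 were in no list and the other was Onecut2. Several of them separated the cultures in both settings. Rnd3, a small GTPase that loosens the actin cytoskeleton, was at 68.6 to 98.6 CPM in replicate 1, 98.7 to 135 CPM in replicate 2 and 170 to 192 CPM in replicate 3, without overlap (2.15-fold, edgeR adjusted p = 9.95e-06, and 2.00-fold without repeats 1 to 4 of replicate 3, 0.000558). Sema5a, a guidance protein, was at 18.7 to 27.7 CPM in replicate 1 and at 45.7 to 88.2 and 42.8 to 114 CPM in the others (3.22-fold, adjusted p = 5.46e-05, and 2.78-fold without, 6.06e-05).

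Foxj1, the master regulator of motile cilia, was highest in replicate 1, with 60.2 to 130 CPM against 27.7 to 50.3 CPM in replicate 2 and 24.3 to 65.2 CPM in replicate 3 (2.54-fold, edgeR adjusted p = 0.000184, and 2.55-fold without repeats 1 to 4 of replicate 3, 0.000623). Cbl, a ubiquitin ligase for EGF receptor, was also highest in replicate 1 (2.63-fold, adjusted p = 0.000215, and 2.64-fold without, 0.000487). The RNA-binding Raly was highest in replicate 2, at 142 to 178 CPM against 68.4 to 88.7 CPM in replicate 1 and 53.6 to 134 CPM in replicate 3 (2.08-fold in both settings, adjusted p = 0.000268, and 7.77e-06 without). Trf, which encodes transferrin, was lowest in replicate 1 at 76.8 to 133 CPM (2.18-fold, adjusted p = 0.000333, and 1.88-fold without, 0.000487).

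Other genes of the 15 were highest in repeats 1 to 4 of replicate 3. The splicing kinase Clk1 was at 479 to 610 CPM there, 395 and 397 CPM in repeats 5 and 6, and 195 to 240 and 272 to 334 CPM in replicates 1 and 2 (2.25-fold, edgeR adjusted p = 6.91e-06, and 1.76-fold without those repeats, 6.06e-05). The deacetylase Sirt1 did not pass without them (3.05-fold, adjusted p = 0.000333, and 2.13-fold, 0.0993). Zbtb20, Kansl1l and the long RNA Kcnq1ot1, which is antisense to Kcnq1, showed the same arrangement, with 2.13-, 2.55- and 2.21-fold with all pools and 1.54-, 1.72- and 1.77-fold without those repeats. For 6820402A03Rik, a transcript inside Kansl1l, the folds were 6.70 and 4.55. All 4 also passed without those repeats in edgeR, at adjusted p of 0.00705, 0.0201, 0.00984 and 0.00264. The strand setting of the counting is not stated, so reads of overlapping or antisense genes cannot be told apart. Another gene of the 15, ENSMUSG00000089788, had no symbol in the annotation.

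The spread between 50-cell pools was set beside that between cultures. Over the 9847 genes at 10 CPM or more, the median pool CV within a replicate was 20.2% and the median CV of the 3 summed replicates, each a sum of 5 or 6 pools, 12.5%, or 17.0% and 10.6% without repeats 1 to 4 of replicate 3. Genes with 10 to 30 reads per pool had a median pool CV of 52.1%, against 24.1% from counting alone, and those with 1000 to 3000 reads one of 13.4%, against 2.67%. Spike-in RNA, which is added in equal amounts and does not vary with the cells, had a median of 42.4% in the lowest class (4 spike-ins) and of 20.1% at 100 to 300 reads (7 spike-ins), where genes had 21.0%. At 300 to 1000 reads, it had 8.23% (3 spike-ins) against 15.7% for genes. Up to 300 reads per pool, the spike-in median lay between the quartiles of the genes. Above that it lay below them, on 3 spike-ins and 1, and at 1000 to 3000 reads only just (10.55% against a lower quartile of 10.64%). Spike-ins were scaled to the spike-in reads of a pool, 1727 to 6982 per library, and genes to the gene reads. A spike-in of 300 reads or more is a large part of its own total, so those classes do not compare like with like.

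**Figure D5:**
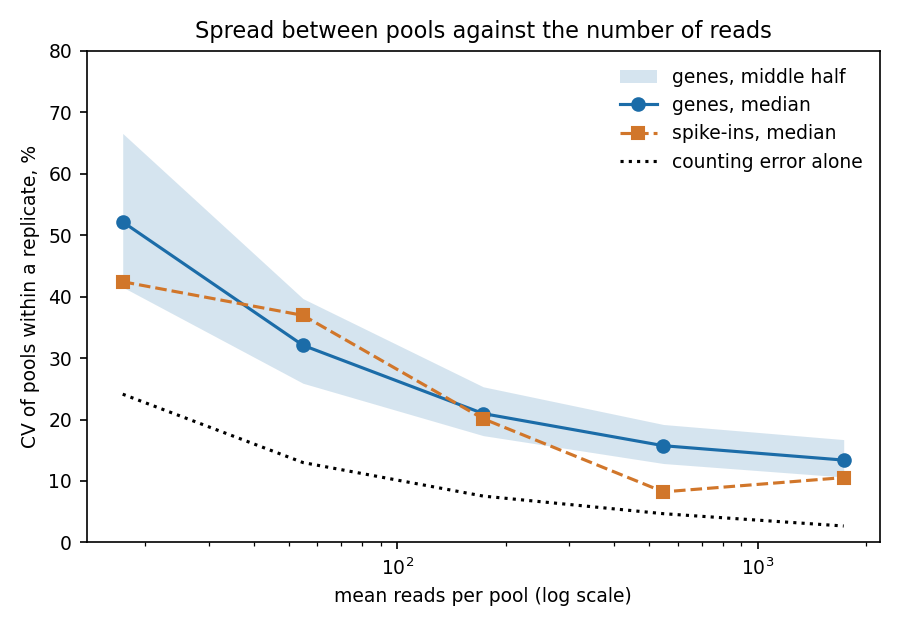
Median CV of pools within a replicate (percent) against mean reads per pool (log axis), for genes (circles, with the middle 50% of genes shaded), spike-ins (squares) and counting error alone (dotted line). Genes fall from 52.1% at 10 to 30 reads to 13.4% at 1000 to 3000 reads, and stay above the counting error in every class.

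The steadiest genes over the cultures at 100 CPM or more were Reep6 (110 ± 0.470 CPM), Mcfd2 (180 ± 1.22 CPM), Fbrsl1 (107 ± 0.789 CPM), mt-Nd5 and Hbp1 (180 ± 1.45 CPM), with replicate CVs of 0.428 to 0.805%. Without repeats 1 to 4 of replicate 3, Reep6 was still the steadiest of the 2059 genes at that level (0.224%), and Hbp1 and Fbrsl1 were at 2.02% and 3.37%. Mcfd2 and mt-Nd5 were at 11.2% and 11.6%, and their levels in replicate 3 were means of unlike pools: Mcfd2 was at 142 CPM in repeats 1 to 4 and 218 CPM in repeats 5 and 6, and mt-Nd5 at 4045 and 2771 CPM. The pool CVs of Reep6, Mcfd2, Fbrsl1 and Hbp1 were 9.19 to 15.1%, beside a median of 15.7% for all genes of 300 to 1000 reads per pool. Mcfd2 helps export clotting factors from the endoplasmic reticulum, and Hbp1 is a repressor of cell cycle genes. At the other end, 3967 genes had over 80% of their summed CPM in 1 pool, and 6 of them reached 10 CPM there. Scgb3a1, a secretoglobin made by airway epithelium, was at 21.3 CPM in repeat 6 of replicate 3, Morc1 at 19.7 CPM in repeat 6 of replicate 1 and Ptprv at 12.6 CPM in repeat 6 of replicate 3. Prl7b1 (12.3 CPM) and Olfr1048 (10.3 CPM) had reads in 1 pool each, and Tnr was at 11.9 CPM in repeat 5 of replicate 2. The next 4 were Gm37015, Klra1, Asb5 and Lama2, at 7.83 to 9.45 CPM. No gene held in this way by 1 pool reached 50 CPM.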

How the data were processed

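Libraries of 50 sorted cells were prepared with Smart-seq2 and Nextera XT without molecular identifiers and read single-end at 50 bases (the labels and the paper name different HiSeq models). The deposited table holds raw read counts per gene, not normalized: the authors aligned with GSNAP to mm10 and counted on genes of Ensembl release 81 with HTSeq (0.5.3p3), as given in the submitters' processing notes and the paper. The strand setting is not given in the sources used here, and the line for multiple alignments is 0. Of all reads, 19.8 to 25.8% were listed as not aligned, 12.0 to 18.7% as in no gene and 5.5 to 9.8% as ambiguous, and these stayed out of all totals.

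From the counts, CPM was computed over the 46078 mouse genes, without the 92 spike-ins, and RPKM with GENCODE M21 exon lengths (45229 genes with a length, 45143 with a symbol, coordinates on GRCm38). Pairs of repeats with a chi-square per gene under 3 were summed. Genes with a read in at least 5 libraries were tested for a difference between the 3 replicates with the quasi-likelihood F test of edgeR 4.0.16 in R 4.3.3 (TMM, robust, Benjamini-Hochberg, 0.05), checked on simulated data, and folds are between fitted replicate levels. The groups came from the labels, which call the replicates biological and the repeats technical. At most 3 reads per replicate was taken as the detection limit, and such limits cover counting error only. Pools held 2442784 reads or more after summing. Alternatives were DESeq2 1.42.0, scran 1.30.0 size factors, other filters, thinned pools, all libraries apart and leaving out replicates. Those that leave out repeats 1 to 4 or 5 and 6 of replicate 3 were chosen after seeing the data, as were the members and lists, which were chosen with earlier results of these data known. Some genes are in several lists (such as Sox9, Car2, Hes1, Myc, Lgr4, Lgr5) and count in each. Genes named are the 3 markers, the 20 highest, the 4 highest per kilobase of each list, endocrine genes above the limit, the 15 with the smallest p among those 2-fold apart at 10 CPM or more, listed genes passing that rule, the 10 highest of the genes with over 80% of CPM in 1 pool and the 5 steadiest, and further members of the lists were named after their values were seen. Results that these rules gave for some genes are not reported here. Genes with near-identical copies (mitochondrial genes, amylases, trypsinogens, insulins, Fen1) are uncertain. Figures were drawn with matplotlib 3.10.9.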

Additional observations from a re-analysis of the deposited data

Results flagged for a closer look

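Over 78 sets of pools of 1 replicate, 4 held a pool whose gap to its nearest neighbour was large for the range of the set. Chance gives about 1 in 20, so about this many flags would come from chance alone. Repeat 3 of replicate 1 had 16693 genes with a read against 17666 to 18119 in the other pools of that culture, and it was also the shallowest of them, with 2442784 reads on genes. Repeat 6 of replicate 1 had a summed acinar level of 20.3 CPM, with 5.048 to 7.778 CPM in the others. Mesenchymal and endothelial genes summed to 33.17 CPM in repeat 1 of replicate 1, where the others were at 3.822 to 11.09 CPM. The same list was at 56.73 CPM in repeat 4 of replicate 3, against 7.028 to 14.91 CPM. These sums rest on few reads, 9 to 257 per pool for the acinar list and 21 to 181 for the mesenchymal and endothelial list. Repeat 1 of replicate 1 is also the pool with the lowest G2 and mitosis sum, 322 CPM. The cause of these values was not tested.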

How the results depend on the processing

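The count of genes that differed between replicates (1610, with 387 at 2-fold or more) moved most with the pools used. It was 400 (89) without repeats 1 to 4 of replicate 3, 4374 (1557) without repeats 5 and 6, and 178 (71) from repeats 5 and 6 of each replicate, while leaving out 1 replicate gave 111 to 1059 (34 to 284), lowest without replicate 1. DESeq2 called 2725 (581), and all 18 libraries kept apart gave 2934 (682), where near-identical libraries count as separate pools. With scran size factors, other filters or thinned pools, both counts stayed within 1.5 times. Of the 46 endocrine genes, 11 had no read in any replicate and 41 were under 1 CPM, and 28 to 30 were at most at 3 reads when a replicate was left out. The median CVs ranged from 14.4 to 25.3% for pools and from 8.36 to 18.6% for replicates. List sums moved by more than their SD in 8 of 132 recomputations, 7 of them when mitochondrially encoded genes were left out of the total. Depth limits what can be said of genes near 3 reads per replicate. No paired analysis was possible because a single group was used and the replicate number is the factor tested. That holds for pairing by replicate number only. A block on the repeat number, or on repeats 1 to 4 against repeats 5 and 6, was not tested.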
